A study of Mus musculus with 6 samples.

Results

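The genes described here are the classical axon guidance ligands and receptors as measured in liver endothelial cells (ECs) of young and aged mice. They were chosen by symbol as the semaphorins of classes 3 to 7, the plexins, Slits, Robos, netrins, Unc5 receptors, ephrins and Eph receptors, leaving out Efnb2, Ephb4, Sema3g and Unc5b. The rule took 62 of the 24421 genes in the count table, of which 33 encode ligands and 29 encode receptors. RNA was sequenced from CD31+CD45- cells sorted by flow cytometry from the liver, with 50000 cells per sample and single-end reads of 75 bases. The young group was 3 samples from C57BL/6J wild-type mice aged 10 weeks, and the aged group was 3 samples from C57BL/6J wild-type mice aged 127, 131 and 136 weeks. The labels do not say whether a sample held 1 mouse or several, so p-values measure the spread between these samples. The study used female mice and left out mice with visible tumours or an enlarged liver or spleen. Each aged sample had its own age, so the spread within that group includes age.

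Guidance cues were first described as signals that attract or repel growing axons, and blood vessels use the same families. Semaphorins act through plexins, in class 3 with neuropilins as co-receptors. Slits bind Robo receptors, netrins bind the Unc5 receptors and DCC, and ephrins bind Eph receptors on the neighbouring cell, with signals passing into both cells. In endothelium these systems are known for controlling sprouting, junctions and the boundaries between arteries and veins.

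The libraries held between 23001556 and 31651817 counts, so that 3 counts corresponded to between 0.0948 and 0.130 CPM (counts per 1000000 counts of the library). CPM values here are scaled by TMM factors between 0.963 and 1.11. Lars2 and Rn45s, 2 genes that collect ribosomal RNA reads, took 1.29% of the counts of young sample 3 and 0.960% of those at 127 weeks, against 4.68% to 5.53% elsewhere. Comparisons within each of these kinds of library are given below as differences of log2(CPM + 1), the kind with more of these counts first. The kind with fewer held only young sample 3 and the 127-week sample, so its differences have no replicate. The other kind held young samples 1 and 2 and the 131-week and 136-week samples. All 10 pan-endothelial markers were detected, with a summed level between 15350 and 17040 CPM in young and between 11020 and 14300 CPM in aged samples. Eng (means 4995 and 3967 CPM in young and aged) and Kdr (3507 and 2237 CPM) held the largest parts of that sum. Kdr, Tek, Eng and Esam, 4 of the 10, were lower in every aged sample, against 8.33% of all genes tested. Pecam1, Erg and Emcn had a log2 fold change above 0. Shares of this sum below are thus relative to a sum that was itself lower in aged samples. The 10 sinusoidal markers, which mark the fenestrated capillary bed of the liver, summed to between 21330 and 22690 CPM in young and between 8207 and 14260 CPM in aged samples. Of these 10, 8 were lower in every aged sample, against 8.33% of all genes tested. The 10 large-vessel endothelial markers overlapped in sum, at 3584 to 5377 CPM in young and 3419 to 5482 CPM in aged samples. Of these, 9 had a log2 fold change above 0, and 3 (Cd34, Sox17 and Bmx) were higher in every aged sample, against 9.62% of all genes tested. Leukocyte markers summed to between 96.0 and 137 CPM in young and between 117 and 366 CPM in aged samples, and each of the 14 had a count in at least 1 sample. All 14 had a log2 fold change above 0, with a median of 2.00. Cholangiocyte markers (6 genes) summed to between 89.5 and 109 CPM in young and between 193 and 240.1 CPM in aged samples, most of it from Spp1. The 4 mesothelial markers summed to between 8.12 and 17.4 CPM in young and between 18.3 and 21.6 CPM in aged samples, where Krt18 was higher and Msln and Upk3b were lower without overlap. Hepatocyte markers (10 genes) were lower, at 121 to 180 CPM in young and 71.3 to 97.3 CPM in aged samples. The part of these other cells in the differences described here was not tested. In bulk RNA, fewer cells of a type and less RNA per cell cannot be told apart.

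Measured per length, a small set of guidance genes held most of the expression. Of the 62 genes, 29 had a mean of at least 1 FPKM (deposited values scaled to transcript length and library size) over the 6 samples and 17 a mean of at least 10 FPKM. Robo4, Ntn4, Sema3f and Efna1 together took 63.1% of the summed FPKM of all 62. Most families were carried by 1 member. Robo4 held 98.5% of the Robo FPKM, Efna1 99.3% of the ephrin-A FPKM, Efnb1 99.9% of the ephrin-B FPKM with Efnb2 not counted, Unc5a 99.9% of the Unc5 FPKM with Unc5b not counted, and Ntn4 91.6% of the netrin FPKM. Epha2 held 77.5% of the EphA FPKM and Sema3f 55.7% of the semaphorin FPKM. The plexins were spread more evenly, with Plxnc1 at 39.3% of the plexin FPKM. Epha6, Epha8 and Unc5d had no count in any sample, for which 3 counts set the upper limit given above. A further 9 genes, Efna3, Efna4, Sema4g, Sema4f, Sema3e, Ephb2, Slit1, Epha5 and Epha10, stayed under 0.5 CPM in every sample and were not tested.

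**Figure D1:**
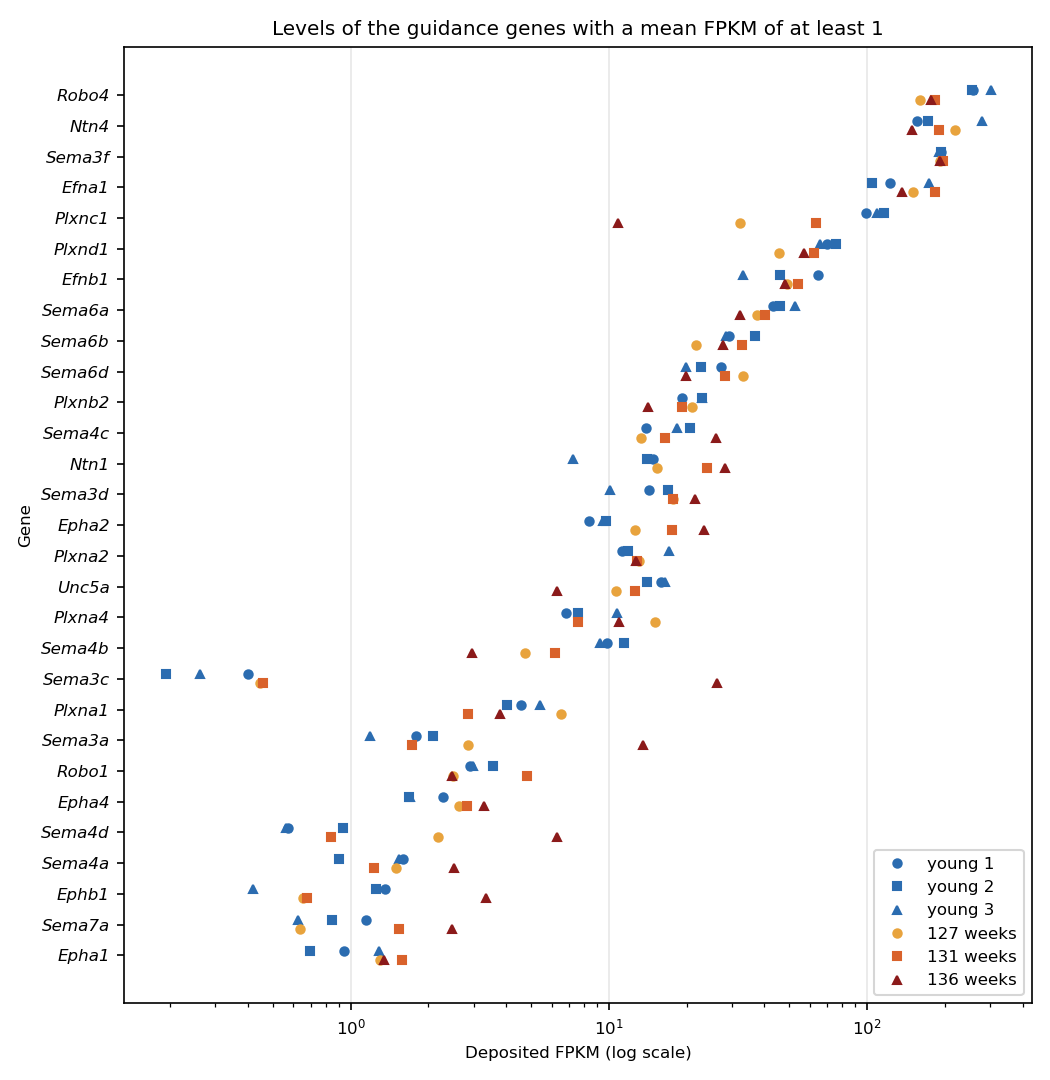
Deposited FPKM on a log axis for the 29 guidance genes with a mean of at least 1 FPKM, with a point for each of the 3 young (blue) and 3 aged (orange to dark red) samples. Robo4 lies at the top with a mean of 222 FPKM, and the points of Sema3c spread widest among the aged samples.

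The order at the top of these levels was not sharp. Robo4 had a mean of 222 FPKM, from 256, 256 and 301 FPKM in young and 161, 184 and 177 FPKM at 127, 131 and 136 weeks. Ntn4, a laminin-related netrin of basement membranes, had a mean of 194 FPKM, from 157, 172 and 278 FPKM in young and 220, 189 and 149 FPKM in aged samples. Sema3f, a secreted ligand of neuropilin-2, had a mean of 192 FPKM, from 193, 193 and 190 FPKM in young and 192, 196 and 191 FPKM in aged samples. Ntn4 and Sema3f overlapped over the 6 samples. The aged values of Robo4 lay within the range of Ntn4 and below every value of Sema3f. Efna1, the membrane-anchored ligand of EphA receptors, followed with 123, 105 and 174 FPKM in young and 151, 184 and 136 FPKM in aged samples. Plxnc1 and Plxnd1 came next, at means of 71.8 and 62.7 FPKM.

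The comparison of aged with young ECs asked which guidance genes change with age in liver endothelium. By edgeR's quasi-likelihood test with Benjamini-Hochberg adjustment no gene passed an adjusted p of 0.05, neither among the 62 nor among all 14612 genes tested (0% called), and the smallest adjusted p among the guidance genes was 0.235. At an unadjusted p under 0.05, 13 of the 50 guidance genes tested (26%) were called against 12.6% of all genes tested. Of these, 8 were higher in aged ECs, against 8.32% of all genes, and 5 were lower, against 4.32% of all genes. The ages did not overlap for 17 of the 50 (34%), against 17.9% of all genes tested. Every aged sample lay above every young sample for 10 of them, against 9.62% of all genes, and below for 7, against 8.33% of all genes. DESeq2 called 6 of the 46 guidance genes to which it gave an adjusted p, against 4.57% of the genes it tested: Robo4, Sema4b, Epha2, Sema4d, Robo2 and Plxnc1. By limma-voom 0 of the guidance genes had an adjusted p under 0.05. The median log2 fold change of the 50 was 0.35, with 34 higher and 16 lower, and that of all genes tested was 0.0098. By limma-voom the median of the 50 was 0.15, and on log2(FPKM + 1) it was 0.094. A gene could pass the filter on low counts through the group in which it was higher, so these counts and medians describe the genes that passed and not all 62.

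**Figure D2:**
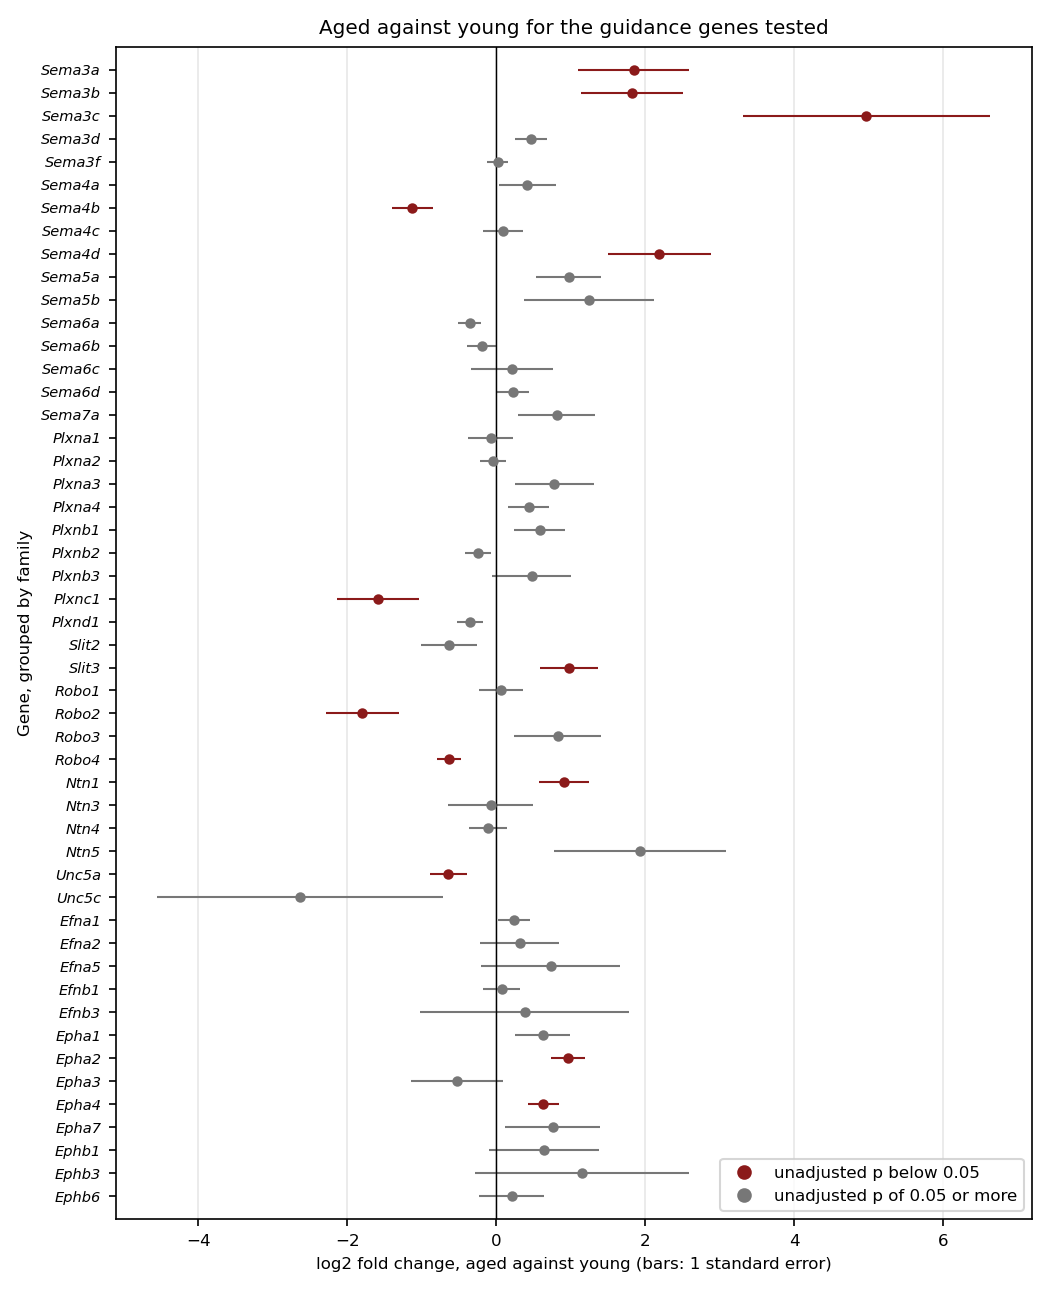
Log2 fold change of aged against young ECs for the 50 guidance genes tested, grouped by family, with bars of 1 standard error from edgeR. The 13 genes in dark red had an unadjusted p under 0.05; Sema3c (4.97) lies farthest to the right with a wide bar, and Robo4 (-0.63) has one of the narrowest.

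Among the ligands, 7 of 27 tested had an unadjusted p under 0.05, 6 of them higher in aged ECs, against 12.6% and 8.32% of all genes tested. Class 3 semaphorins, which are secreted, made up 3 of these. Sema3c, a ligand of neuropilins, was measured at 2.01, 0.948 and 1.32 CPM in young samples and at 2.201, 2.29 and 131 CPM at 127, 131 and 136 weeks. Every aged value was above every young value, but the 136-week sample alone stood far from the rest. The log2 fold change was 4.97 (standard error 1.66, adjusted p = 0.324 by edgeR's quasi-likelihood test) and 0.65 without that sample. Sema3a, the ligand of neuropilin-1 that collapses growth cones, was measured at 11.8, 13.9 and 7.54 CPM in young and 18.4, 11.4 and 90.1 CPM in aged samples. The 131-week value lay within the young range and the 136-week value again stood apart. Its log2 fold change was 1.85 (standard error 0.74, adjusted p = 0.374 by edgeR) and 0.42 without the 136-week sample. Sema3b had 0.893, 0.451 and 0.820 CPM in young and 1.31, 1.32 and 5.12 CPM in aged samples, with a log2 fold change of 1.82 at a standard error of 0.69 (adjusted p = 0.355 by edgeR) and 0.86 without the 136-week sample.

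The 136-week sample also had the highest sums of the leukocyte markers (366 CPM against 96.0 to 172 CPM in the other 5) and of the lymphatic endothelial markers (4599 CPM against 567 to 2479 CPM). Of the 5 lymphatic markers, Prox1 (159.5 CPM against 16.1 to 68.2 CPM), Pdpn, Reln and Mmrn1 were each highest in that sample, and Ccl21a had no count in any sample. The part of other cells in the 3 class 3 semaphorins was not tested. Within the libraries with more Lars2 and Rn45s counts the aged samples were higher by 3.11, 1.28 and 1.19 for Sema3c, Sema3a and Sema3b on the log2(CPM + 1) scale, and within those with fewer by 0.46, 1.18 and 0.34.

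The class 3 semaphorin with the highest FPKM had nearly the same level in all 6 samples. Sema3f was measured at 652, 653 and 634 CPM in young and 650, 666 and 651 CPM in aged samples, a mean of 647 ± 10.4 against 656 ± 8.54 CPM (SD, n = 3 each). Its log2 fold change was 0.02 (standard error 0.14), and between 0.0071 and 0.030 over all 15 alternatives run. Sema3d, another secreted class 3 ligand, had 94.0, 111 and 64.9 CPM in young and 115, 117 and 143 CPM in aged samples, all aged values above all young ones. Its log2 fold change was 0.47 (standard error 0.22, adjusted p = 0.427 by edgeR).

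The membrane-bound semaphorins went both ways. Sema4b, a transmembrane semaphorin, was measured at 38.9, 45.0 and 35.6 CPM in young and 18.6, 24.5 and 11.6 CPM in aged samples. All 3 aged values lay below all young ones. The log2 fold change was -1.13 (standard error 0.28, adjusted p = 0.237 by edgeR, 0.0104 by DESeq2), and it was between -1.40 and -0.89 when each sample was left out. Within the 2 kinds of library the aged samples differed by -1.26 and -0.90. As a share of the pan-endothelial marker sum Sema4b was lower in aged samples without overlap, at 0.209% to 0.289% in young and 0.105% to 0.171% in aged samples. Its share of the sinusoidal sum overlapped, at 0.182%, 0.199% and 0.159% in young and 0.226%, 0.172% and 0.141% in aged samples. Sema4d, a transmembrane ligand of plexin-B1 that is also known as the T cell antigen CD100, had 2.57, 4.20 and 2.43 CPM in young and 9.80, 3.73 and 28.4 CPM in aged samples. The 131-week value lay within the young range. Its log2 fold change was 2.19 (standard error 0.69, adjusted p = 0.302 by edgeR, 0.0252 by DESeq2) and 1.15 without the 136-week sample. As a share of the summed leukocyte markers Sema4d was 1.88%, 4.37% and 2.05% in young and 5.70%, 3.19% and 7.75% in aged samples. Most of the young sum came from Fcer1g, which overlapped between the ages at 62.7 to 86.8 CPM in young and 59.3 to 91.8 CPM in aged samples. Ptprc, the gene of CD45, had 1.56, 1.17 and 1.70 CPM in young and 7.57, 1.28 and 25.6 CPM in aged samples. Like Sema4d, it was highest at 136 weeks and within the young range at 131 weeks. The part of leukocytes in the Sema4d difference was not tested.

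The other semaphorins of classes 4 to 7 did not pass an unadjusted p of 0.05 in the main edgeR fit, with TMM factors and no term for the library kind. Sema6a, a transmembrane ligand of plexin-A2 and plexin-A4, had 303, 320 and 363 CPM in young and 262, 283 and 226 CPM in aged samples, each aged value below each young one. Its log2 fold change was -0.35 (standard error 0.16, adjusted p = 0.406 by edgeR). As a share of the pan-endothelial marker sum Sema6a was between 1.97% and 2.13% in young and between 1.98% and 2.07% in aged samples. Its share of the sinusoidal sum was higher in aged samples without overlap, at 1.41% to 1.61% in young and 1.99% to 3.19% in aged samples. Sema6b was measured at 110, 139 and 109 CPM in young and 82.8, 124 and 106 CPM in aged samples, and Sema6d at 164, 138 and 119 CPM in young and 198, 171 and 121 CPM in aged samples. Sema4c, a ligand of plexin-B2, was measured at 50.6, 75.3 and 67.0 CPM in young and 49.1, 61.4 and 94.7 CPM in aged samples. The ages overlapped for these 3. Sema5a was low, at 1.86, 1.49 and 0.978 CPM in young and 1.96, 3.66 and 2.88 CPM in aged samples, with no overlap and a log2 fold change of 0.97 (standard error 0.44). Sema7a, the ligand of plexin-C1, had between 1.96 and 3.65 CPM in young and between 2.03 and 7.88 CPM in aged samples, and Sema4a, Sema5b and Sema6c likewise overlapped.

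Netrin-1 was higher and netrin-4 overlapped between the ages. Ntn1, the diffusible ligand of DCC and the Unc5 receptors, was measured at 85.2, 80.5 and 40.9 CPM in young and 87.7, 138 and 163 CPM in aged samples. The groups did not overlap, but the 127-week value was close to the upper young values. The log2 fold change was 0.91 (standard error 0.33, adjusted p = 0.343 by edgeR) and 0.65 to 1.13 when each sample was left out. Within the 2 kinds of library the aged samples were higher by 0.85 and 1.08. Ntn4 had 370.5, 407 and 644 CPM in young and 516, 447 and 355 CPM in aged samples, a log2 fold change of -0.11 (standard error 0.26), with young sample 3 the highest and the 136-week sample the lowest. Ntn3 and Ntn5 stayed at or below 2.16 CPM in every sample.

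Slits were low, and the ephrins overlapped between the ages. Slit3, a secreted Robo ligand, had 2.57, 2.57 and 2.62 CPM in young and 2.96, 4.98 and 7.43 CPM in aged samples, with a log2 fold change of 0.98 at a standard error of 0.39 (adjusted p = 0.369 by edgeR) and 0.62 without the 136-week sample. Slit2 had between 2.21 and 3.80 CPM in young and between 1.71 and 2.41 CPM in aged samples. Efna1 was measured at 163, 139 and 225 CPM in young and 197, 244 and 181 CPM in aged samples, a log2 fold change of 0.24 (standard error 0.22). Efnb1, a transmembrane ephrin, had 212, 151 and 106 CPM in young and 158, 177 and 158 CPM in aged samples, with a log2 fold change of 0.07 (standard error 0.25). The young samples spanned the whole range of Efnb1 and the aged ones lay inside it. Efna2, Efna5 and Efnb3 also overlapped, at up to 4.30 CPM.

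**Figure D3:**
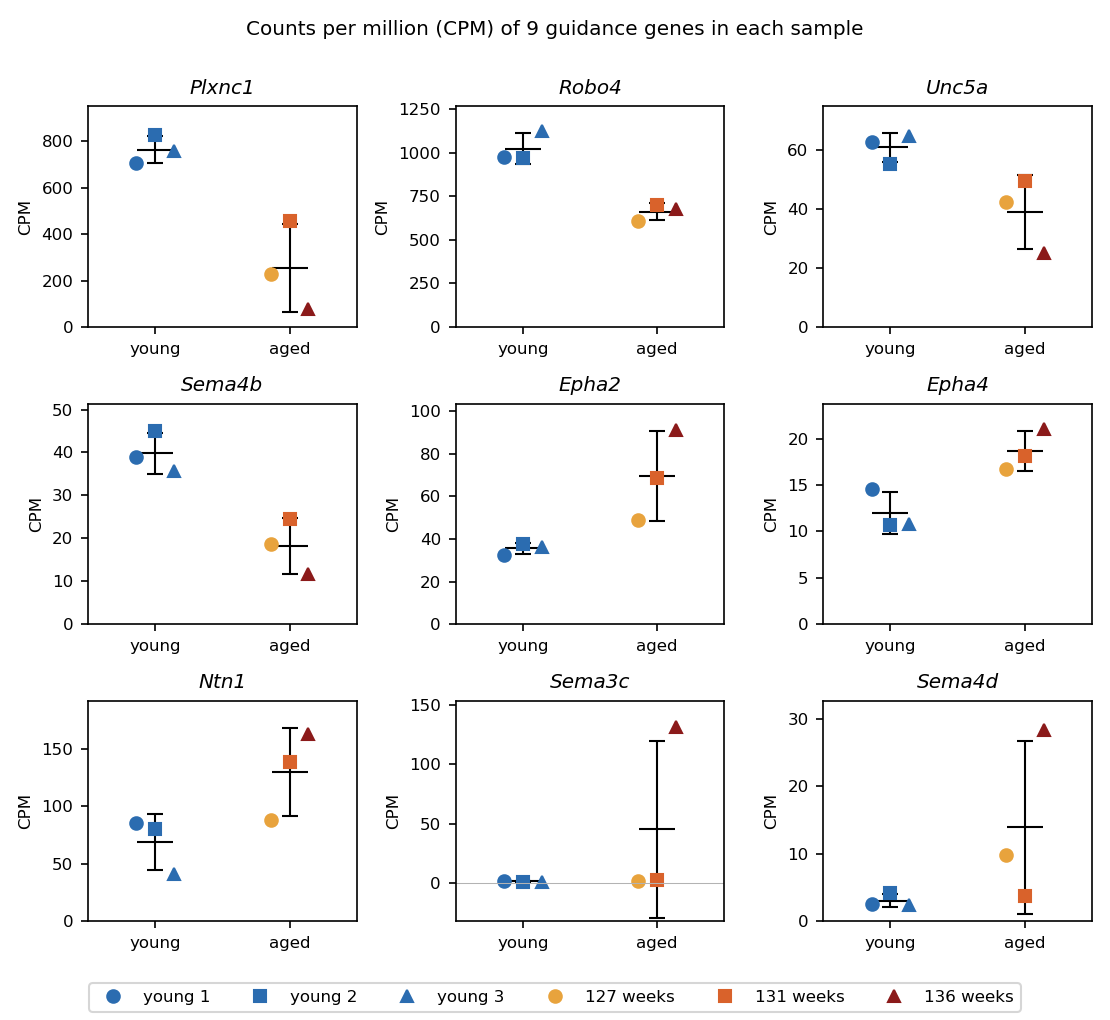
CPM of 9 guidance genes in each sample, with the group mean as a line and the SD as a bar (n = 3 each). Plxnc1, Robo4, Unc5a and Sema4b lie lower in every aged sample, and Sema3c is high in the 136-week sample alone at 131 CPM.

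Among the receptors, 6 of 23 tested had an unadjusted p under 0.05, 2 higher and 4 lower in aged ECs, against 12.6%, 8.32% and 4.32% of all genes tested. The largest difference between mean CPM values was in Plxnc1, the receptor of Sema7a, which lies at chr10:94253617-94407212 on the minus strand in the mm9 genome. Plxnc1 was measured at 707, 825 and 759 CPM in young samples and at 228, 455 and 77.3 CPM at 127, 131 and 136 weeks. Each aged value was below each young one, and the aged values spread over a wider range than the young. The means were 764 ± 59.4 CPM and 254 ± 190 CPM (SD, n = 3 each), with a log2 fold change of -1.59 at a standard error of 0.55 (adjusted p = 0.332 by edgeR, 0.0384 by DESeq2). Its log2 fold change was between -2.32 and -1.16 when each sample was left out, and -2.02 and -1.73 within the 2 kinds of library.

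Plxnc1 was lower in aged samples relative to both endothelial marker sums as well. Against the pan-endothelial sum its share was 4.60%, 5.29% and 4.46% in young and 1.81%, 3.18% and 0.701% in aged samples. As a share of the sinusoidal sum it was 3.31%, 3.64% and 3.38% in young samples, 2.78% at 127 weeks and 3.19% at 131 weeks, and 0.939% at 136 weeks. Neither share overlapped between the ages, and the sinusoidal shares of the 127-week and 131-week samples lay close to the young ones. The 127-week and 136-week samples had sinusoidal sums of 8207 and 8230 CPM while Plxnc1 was 228 and 77.3 CPM. The single markers were not equal in these samples. Lyve1 (661 and 1506 CPM) and Flt4 (763 and 1462 CPM) were higher at 136 weeks, and Stab1 and Stab2 slightly so. Clec4g (1356 and 565 CPM), Fcgr2b, Oit3, Gpr182, Dnase1l3 and Mrc1 were lower there. The part of the sinusoidal cells in the difference was not tested.

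**Figure D4:**
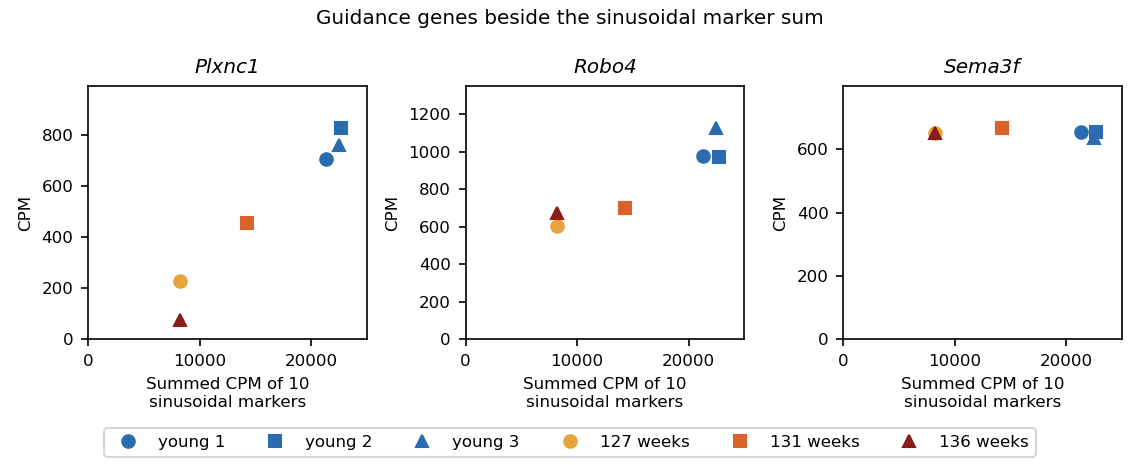
CPM of Plxnc1, Robo4 and Sema3f against the summed CPM of 10 sinusoidal markers, with a point per sample. The 3 young samples lie to the right, between 21330 and 22690 CPM on the horizontal axis; Plxnc1 and Robo4 are lower at the left and Sema3f lies between 634 and 666 CPM in all 6.

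The remaining plexins showed no unadjusted p under 0.05 in the main edgeR fit. Plxnd1, the endothelial receptor of Sema3e, had 487, 526 and 452 CPM in young and 316, 437 and 398 CPM in aged samples. Its aged values lay below its young values, with a log2 fold change of -0.35 at a standard error of 0.17 (adjusted p = 0.466 by edgeR). As a share of the pan-endothelial marker sum Plxnd1 overlapped between the ages, at 2.65% to 3.37% in young and 2.50% to 3.61% in aged samples. The sinusoidal share of Plxnd1 was higher in aged samples without overlap, at 2.01% to 2.32% in young and 3.06% to 4.84% in aged samples. Sema3e itself was among the genes under 0.5 CPM. Plxnb2, the receptor of Sema4c, was measured at 125, 150 and 148 CPM in young and 137, 127 and 93.9 CPM in aged samples, and overlapped. Plxna2 (mean 13.1 FPKM) and Plxna4 (mean 9.80 FPKM), the receptors of Sema6a, overlapped too, as did Plxna1 and Plxnb3. Plxnb1, the receptor of Sema4d, and Plxna3 were higher in every aged sample but stayed at or below 4.10 CPM, with log2 fold changes of 0.58 and 0.78.

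The 2 Robo receptors with an unadjusted p under 0.05, Robo4 and Robo2, were both lower in aged ECs. Robo4, the endothelial Robo, which is known to limit vessel permeability and to bind Unc5b, lies at chr9:37209482-37221608 on the plus strand in mm9. It was measured at 974, 969 and 1124 CPM in young and 606, 701 and 674 CPM in aged samples. The groups lay well apart, at means of 1022 ± 88.0 and 660.4 ± 49.0 CPM (SD, n = 3 each). The log2 fold change was -0.63 (standard error 0.16, adjusted p = 0.243 by edgeR, 0.00232 by DESeq2). It was between -0.68 and -0.56 over all 15 alternatives run. Within the 2 kinds of library the aged samples differed by -0.50 and -0.89. As a share of the pan-endothelial marker sum Robo4 was 6.35%, 6.22% and 6.60% in young and 4.79%, 4.90% and 6.12% in aged samples, also without overlap. As a share of the sinusoidal sum it was 4.27% to 5.004% in young and 4.92% to 8.19% in aged samples.

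Robo2, a neuronal Robo receptor, was low, with 37, 38 and 55 counts in young and 17, 11 and 9 counts in aged samples. This corresponded to 1.38, 1.72 and 1.74 CPM against 0.585, 0.428 and 0.365 CPM, with no overlap. The aged-to-young log2 fold change was -1.79 (standard error 0.49, adjusted p = 0.256 by edgeR, 0.0283 by DESeq2). As a share of the pan-endothelial marker sum Robo2 was 0.00897% to 0.0110% in young and 0.00299% to 0.00462% in aged samples, without overlap. Its share of the sinusoidal sum overlapped, at 0.00646% to 0.00773% in young and 0.00300% to 0.00712% in aged samples. Robo1 had 22.2, 27.5 and 22.7 CPM in young and 19.1, 37.5 and 19.1 CPM in aged samples, with the ages overlapping. Robo3 had between 0.484 and 1.89 CPM over the 6 samples.

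Unc5a, a netrin receptor known mostly from neurons, was the Unc5 receptor present in these cells apart from Unc5b. It was measured at 62.7, 55.2 and 64.6 CPM in young and 42.4, 49.4 and 24.9 CPM in aged samples. All aged values were below all young ones, with a log2 fold change of -0.65 at a standard error of 0.25 (adjusted p = 0.364 by edgeR). Within the 2 kinds of library the aged samples differed by -0.73 and -0.60. As a share of the pan-endothelial marker sum Unc5a was lower in aged samples without overlap, at 0.354% to 0.409% in young and 0.226% to 0.346% in aged samples. Its share of the sinusoidal sum was higher in aged samples without overlap, at 0.243% to 0.294% in young and 0.303% to 0.516% in aged samples. Unc5a overlaps Hk3, a hexokinase gene of blood cells, on the opposite strand, and without stranded counting the reads of the pair cannot be told apart. Unc5c had at most 0.542 CPM.

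The Eph receptors with an unadjusted p under 0.05, Epha2 and Epha4, were both higher in aged ECs. Epha2, the main receptor of Efna1, lies at chr4:140857155-140885299 on the plus strand in mm9. It was measured at 32.5, 37.7 and 36.3 CPM in young and 48.8, 68.7 and 91.1 CPM in aged samples, without overlap. The means were 35.5 ± 2.69 and 69.5 ± 21.1 CPM (SD, n = 3 each), and the log2 fold change was 0.97 (standard error 0.23, adjusted p = 0.235 by edgeR, 0.0149 by DESeq2). It was between 0.73 and 1.17 over all 15 alternatives run, and within the 2 kinds of library 1.15 and 0.42. Epha4, which binds ephrins of both classes, had 14.6, 10.7 and 10.8 CPM in young and 16.8, 18.2 and 21.0 CPM in aged samples. These values did not overlap, and the log2 fold change was 0.64 (standard error 0.21, adjusted p = 0.310 by edgeR), with 0.61 and 0.59 within the 2 kinds of library. Epha1, Epha3, Epha7, Ephb1, Ephb3 and Ephb6 overlapped between the ages. Ephb1 was highest in the 136-week sample at 15.4 CPM against 1.89 to 6.25 CPM in the other samples.

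**Figure D5:**
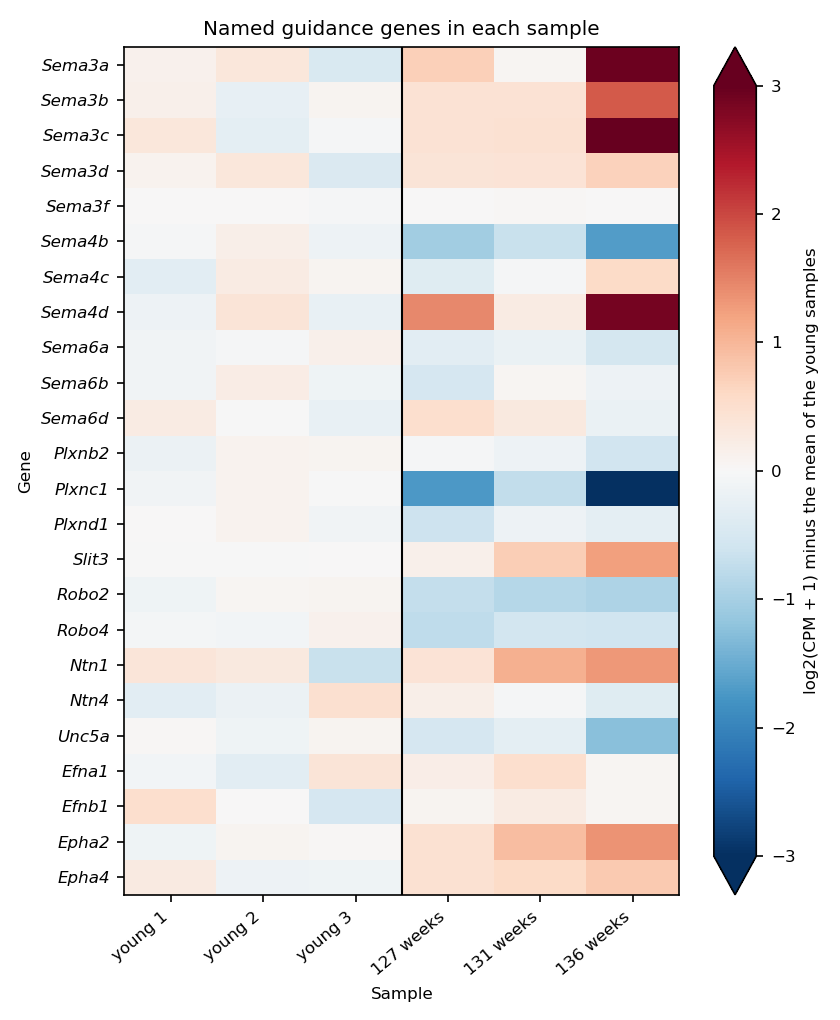
Heat map of log2(CPM + 1) minus the mean of the 3 young samples for the 24 guidance genes described by sample, with families from top to bottom and the young samples to the left of the line; colours stop at 3 in either direction. Plxnc1, Sema4b, Robo2, Robo4 and Unc5a are blue in all 3 aged samples, while Sema3a, Sema3c and Sema4d are darkest red at 136 weeks.

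The 136-week sample and young sample 3 both weighed on the genes that were higher in aged ECs. The 136-week sample held the highest value for 19 and the lowest for 12 of the 50 guidance genes tested. Young sample 3 held the lowest value for 17. The same counts were not made over all genes. Over all genes tested the 136-week sample also lay farthest from the young mean. Its median absolute difference was 0.327 on the log2(CPM + 1) scale, against 0.275 and 0.201 at 127 and 131 weeks. Without the 136-week sample, 7 of 50 guidance genes had an unadjusted p under 0.05 by edgeR, against 7.78% of all genes in the same fit. They were the 5 lower genes, Plxnc1, Robo2, Robo4, Sema4b and Unc5a, and the 2 Eph receptors Epha2 and Epha4. Ntn1, Slit3, Sema3a, Sema3b, Sema3c and Sema4d were then no longer called. Without young sample 3 the number called was also 7, against 10.9% of all genes in that fit. The same higher genes were lost there, together with Unc5a, and Epha1 was added. Robo4, Sema4b, Epha2 and Robo2 kept an unadjusted p under 0.05 by edgeR when any 1 of the 6 samples was left out, the highest being 0.0202, 0.0172, 0.0152 and 0.0294. Plxnc1 lost it without the 127-week sample and Epha4 without young sample 2. Unc5a lost it without any 1 of the young samples or the 127-week sample, and Ntn1 also without young sample 3 or the 131-week sample.

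The 250 bases upstream of the RefSeq start are shown for the guidance genes that DESeq2 called, that had a mean of at least 10 FPKM and that had a single start in the RefSeq table, Plxnc1 and Robo4, which were lower in aged ECs, and Epha2, which was higher. The sequences are from RefSeq on GRCm38.p6. Each matched the mm9 genome exactly once, at chr10:94407480-94407729 (minus strand) for Plxnc1, chr9:37209307-37209556 (plus strand) for Robo4 and chr4:140856886-140857135 (plus strand) for Epha2, given 5′ to 3′ with the GC box GGGCGG or its reverse complement in capitals.
Plxnc1: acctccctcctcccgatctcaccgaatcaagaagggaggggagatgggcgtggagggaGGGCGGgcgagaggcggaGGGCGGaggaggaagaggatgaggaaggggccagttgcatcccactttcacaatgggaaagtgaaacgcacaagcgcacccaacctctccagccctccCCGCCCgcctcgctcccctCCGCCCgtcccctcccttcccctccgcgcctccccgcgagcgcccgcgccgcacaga
Robo4: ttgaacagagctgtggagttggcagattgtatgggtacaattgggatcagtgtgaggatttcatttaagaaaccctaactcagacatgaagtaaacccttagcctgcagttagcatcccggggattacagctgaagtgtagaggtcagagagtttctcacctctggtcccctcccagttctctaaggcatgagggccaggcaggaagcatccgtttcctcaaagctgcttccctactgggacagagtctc
Epha2: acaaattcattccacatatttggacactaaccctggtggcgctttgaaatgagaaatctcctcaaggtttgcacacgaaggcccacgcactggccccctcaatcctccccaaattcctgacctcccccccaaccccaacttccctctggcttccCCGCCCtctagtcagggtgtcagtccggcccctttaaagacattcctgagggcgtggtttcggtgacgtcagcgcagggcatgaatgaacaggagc
These 3 windows differed in base composition. The Plxnc1 window held 4 GC boxes at 68.8% G and C, the Epha2 window 1 at 55.6% and the Robo4 window none at 49.6%. The end of the Robo4 window lies inside the gene as the GENCODE mm9 annotation places its start.

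Guidance gene promoters as a set were rich in G and C. A promoter was listed for 53 of the 62 genes, 69 promoters in all, some of them of the same gene, with a median of 64.4% G and C against 52.4% over all 32851 promoters in the table. The GC box GGGCGG was present on either strand in 68.1% of the guidance promoters and in 32.7% of all promoters. The KLF motif CCACCC was present in 52.2% and 28.1%. The ETS motif CCGGAA was present in 8.70% of guidance and 12.0% of all promoters, the GATA motif AGATAA in 4.35% and 9.99% and the SOX motif ATTGTT in 4.35% and 9.42%. The AP-1 motif TGANTCA was present in 4.35% and 6.75%, and the NF-kB motif in 7.25% of both. No 2 of these motifs share the same letters, although matches can overlap in place, and a match describes the letters only.

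Several guidance genes lie beside a relative of very different level. In mm9, Robo4 and Robo3 are 1.6 kb apart on chromosome 9, at means of 222 and 0.123 FPKM. Efna1, Efna3 and Efna4 follow each other on chromosome 3 with gaps of 32.8 and 10.4 kb, at means of 145, 0.131 and 0.0765 FPKM. Sema3b and Sema3f are 72.3 kb apart on chromosome 9, at means of 0.445 and 192 FPKM. Of the 50 genes tested, 18 overlap another gene on the opposite strand.

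Co-receptors and further ligands of these systems were counted from a list of 22 genes, of which 16 could be tested. None had an adjusted p under 0.05 by edgeR, and 4 of the 16 (25%, against 12.6% of all genes tested) had an unadjusted p under 0.05. Of these, 2 were higher and 2 lower, against 8.32% and 4.32% of all genes tested. DESeq2 called 2 by its adjusted p, against 4.57% of all the genes it tested. They were Flrt1 (adjusted p = 1.5e-05 by DESeq2) and Met (0.0459 by DESeq2). Flrt1, a membrane protein of the family that binds Unc5 receptors, was measured at 18.9, 18.0 and 13.9 CPM in young and 2.75, 5.64 and 1.95 CPM in aged samples, a log2 fold change of -2.30 with a standard error of 0.41 (adjusted p = 0.194 by edgeR). Flrt3, of the same family, had 25.7, 19.5 and 13.0 CPM in young and 50.8, 17.5 and 82.0 CPM in aged samples, a log2 fold change of 1.37 with a standard error of 0.52 (adjusted p = 0.362 by edgeR). Its 131-week value lay within the young range, and without the 136-week sample the log2 fold change was 0.82 and the unadjusted call was lost. Met, the receptor of hepatocyte growth factor and a partner of plexin-B1, had 4.69, 6.45 and 0.757 CPM in young and 15.4, 7.51 and 33.7 CPM in aged samples, a log2 fold change of 2.26 with a standard error of 0.80 (adjusted p = 0.337 by edgeR). Without the 136-week sample it was 1.54 and the unadjusted call was lost as well. The neuropilins Nrp1 and Nrp2, co-receptors of the class 3 semaphorins, did not pass an unadjusted p of 0.05, at -0.59 (standard error 0.31) for Nrp1 and -0.06 (standard error 0.21) for Nrp2 on the log2 scale.

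Intracellular effectors of guidance receptors were counted from a list of 44 genes, of which 43 could be tested. None had an adjusted p under 0.05 by edgeR, and 7 of the 43 (16.3%, against 12.6% of all genes tested) had an unadjusted p under 0.05. Of these, 5 were higher and 2 lower, against 8.32% and 4.32% of all genes tested. DESeq2 called 2 by its adjusted p, against 4.57% of all the genes it tested. They were Rnd1 (adjusted p = 1.5e-07 by DESeq2) and Srgap3 (0.0217 by DESeq2). Rnd1, an intracellular protein that binds plexins, was measured at 78.2, 63.3 and 79.1 CPM in young and 351, 277 and 993 CPM in aged samples. The groups lay far apart, with a log2 fold change of 2.88 at a standard error of 0.49 (adjusted p = 0.184 by edgeR) and 2.097 without the 136-week sample. The Slit-Robo GTPase-activating proteins differed in direction. Srgap3 had 1.82, 1.76 and 0.978 CPM in young and 6.47, 2.96 and 4.59 CPM in aged samples, a log2 fold change of 1.62 with a standard error of 0.44 (adjusted p = 0.256 by edgeR), and Srgap1 had 18.3, 19.1 and 27.6 CPM in young and 15.4, 11.5 and 12.5 CPM in aged samples, a log2 fold change of -0.72 with a standard error of 0.23 (adjusted p = 0.303 by edgeR).

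The 4 relatives that the rule left out overlapped between the ages. Ephb4, the venous receptor of ephrin-B2, had a mean of 226 FPKM and a log2 fold change of -0.20 (standard error 0.26), and Efnb2, its arterial ligand, a mean of 41.1 FPKM and a log2 fold change of 0.14 (standard error 0.27). Unc5b was at 0.73 (standard error 0.42) and Sema3g at 1.44 (standard error 0.68) on the same log2 scale, or at 0.17 and 0.31 without the 136-week sample.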

How the data were processed

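RNA was sequenced from CD31+CD45- liver ECs in 6 samples. The authors made reads with CASAVA 1.8.2, aligned them with TopHat2 2.1.0 to mm9 and scaled FPKM values with Cuffnorm 2.2.1. The deposited counts per gene carry no normalization; the counting program, annotation and strand setting are not given in the sources used here. The deposited FPKM served for levels between genes. Genes with at least 0.5 CPM, before TMM scaling, in at least 1 sample were fitted in edgeR 4.0.16 (R 4.3.3) with TMM factors and the quasi-likelihood test, with Benjamini-Hochberg adjustment over all genes tested, and the standard error was the log2 fold change divided by the root of its F value. The fit was tested on simulated data. Alternatives used DESeq2 1.42.0, limma 3.58.1 and other filters and samples. Values in every sample are given for the 15 guidance genes with the highest mean FPKM and every one with an unadjusted p under 0.05. The genes, lists and rules were chosen with earlier results of these data known. Markers of each cell type came from fixed lists. The floor of 3 counts covers counting error only. The closest pair within a group, young samples 1 and 2, differed by a chi-square of 17.3 per degree of freedom over genes, so none was counted as a repeat. All other pairs within a group lay between 124 and 159, so these 2 young samples were much closer to each other than any others.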

Additional observations from a re-analysis of the deposited data

How the results depend on the processing

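The counts of calls differed between tools. Genes with an adjusted p under 0.05 numbered 0 by edgeR with TMM, 639 by DESeq2, 15 by limma-voom with sample weights, 4 without the filter, 2 with a term for the library kind, 1 on log2(FPKM + 0.1) and 0 to 1 when each sample was left out; at an unadjusted p under 0.05 they numbered 1112 to 2436 when each sample was left out, against 1847 with all. The median log2 fold change of the guidance genes tested was 0.35, but 0.15 by limma-voom, 0.25 on log2(FPKM + 0.1), 0.094 on log2(FPKM + 1) and 0.26 to 0.47 when each sample was left out. For the guidance genes DESeq2 gave 6 adjusted calls, and leaving out each sample gave 0. With a term for the library kind 16 of the 50 had an unadjusted p under 0.05 by edgeR, against 16.7% of all genes, and 10 of them were called without it. Epha1, Plxna4, Plxnd1, Sema3d, Sema5a and Sema6a were then added, and Sema3a, Sema3b and Sema3c were lost. By limma-voom 14 of the 50 had an unadjusted p under 0.05, against 15.4% of all genes, and 10 of them were called in the main fit. The 8 genes higher at an unadjusted p under 0.05 became 4 on log2(FPKM + 0.1), 3 on log2(FPKM + 1) and 2 to 10 when each sample was left out, and the 5 lower became 3 to 7. Genes without overlap became 12 to 16 above and 7 to 9 below when each sample was left out, as smaller groups overlap less. For co-receptors DESeq2 gave 2 adjusted calls, limma on both FPKM scales and limma-voom gave 1 higher, limma-voom gave 4 lower, and leaving out each sample gave 0 to 3 higher, 1 to 3 lower and 0 adjusted calls. For effectors DESeq2 gave 2 adjusted calls, limma-voom gave 4 lower, and leaving out each sample gave 3 to 7 higher, 2 to 4 lower and 0 adjusted calls. Signs turned for genes near 0. Efnb1 was -0.044 by limma-voom and -0.14 to 0.36 when each sample was left out, lowest without young sample 3. Ntn4 was 0.13 by limma-voom and -0.26 to 0.18 when each sample was left out, above 0 without young sample 3 (0.18) or the 136-week sample (0.025). Sema4c was -0.22 to 0.28, below 0 without young sample 1 (-0.056) or the 136-week sample (-0.22), and Efnb2 -0.16 to 0.38, below 0 without the 136-week sample. The cause was not tested. No paired analysis was run because the young and aged samples are separate groups and no label links a young sample to an aged one.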
